A study of Homo sapiens with 4 samples.

Results

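The human mitochondrial genome carries 37 genes, and all of them were measured here as RNA in H929, an established cell line derived from multiple myeloma, a cancer of plasma cells. Every gene placed on chromosome MT by the deposited counts was taken, which gave 37 of 63677 genes: 13 mRNAs, 2 rRNAs and 22 tRNAs. The cells had been transduced with an shRNA against ILF2 (2 libraries) or with a non-silencing shRNA (2 libraries). ILF2 is a partner in complexes that bind double-stranded RNA. Total RNA was depleted of ribosomal RNA and sequenced as strand-marked paired reads. The labels do not say if 1 hairpin against ILF2 served for both libraries, or if replicates are separate transductions. Loss of ILF2 and other effects of a hairpin therefore cannot be told apart. The p-values measure the spread between these libraries only, and the fits share that spread in part across genes.

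Mitochondrial DNA is a circle whose strands differ in base composition and are called heavy and light. Each is copied into long transcripts that cover many genes, and tRNAs that lie between the rRNAs and mRNAs are cut out to release them. Genes marked plus in the files are the ones usually called heavy-strand genes, because the heavy strand is their template, and genes marked minus are the light-strand genes. The plus strand held 28 genes (12 mRNAs, both rRNAs and 14 tRNAs). The minus strand held 9 genes, which were MT-ND6 and 8 tRNAs. The mRNAs encode subunits of respiratory complexes I, III, IV and V, and the rRNAs build the mitochondrial ribosome that translates them.

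The stretches below show how tightly the genes are packed and where the counting is uncertain. They are reference sequence of the GRCh37 mitochondrial genome (16569 bases), not reads of these cells, given 5′ to 3′. The first (chrM:3210-3326, plus strand) runs from the end of MT-RNR2 into MT-ND1, with the gene MT-TL1 in capitals, since this tRNA separates the rRNAs from the first mRNA. The second (chrM:8507-8592, plus strand) and the third (chrM:10740-10786, plus strand) show in capitals the 46 bases that MT-ATP8 shares with MT-ATP6 and the 7 bases that MT-ND4L shares with MT-ND4. The fourth (chrM:14634-14693, minus strand) shows the first 40 bases of MT-ND6 in capitals, as the only mRNA read from the other strand. Counting each fragment for a single gene, as the file headers imply, leaves out fragments that touch both genes of such a pair, so the levels of these overlapping genes are uncertain.
MT-RNR2 to MT-ND1: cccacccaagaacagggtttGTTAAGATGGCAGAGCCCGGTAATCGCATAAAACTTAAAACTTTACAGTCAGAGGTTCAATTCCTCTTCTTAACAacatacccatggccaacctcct
MT-ATP8 to MT-ATP6: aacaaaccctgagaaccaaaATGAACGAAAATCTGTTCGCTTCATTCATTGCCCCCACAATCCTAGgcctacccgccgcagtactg
MT-ND4L to MT-ND4: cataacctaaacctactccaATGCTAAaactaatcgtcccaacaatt
MT-ND6 start: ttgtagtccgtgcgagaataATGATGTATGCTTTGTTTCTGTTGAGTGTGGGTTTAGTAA

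The ILF2 shRNA libraries held 63459322 and 71359863 counted fragments and the non-silencing libraries 72977082 and 71389341. ILF2 itself was at 107 and 114 CPM (fragments for every 1000000 counted, with library sizes adjusted by TMM) with ILF2 shRNA, against 717 and 733 CPM with non-silencing shRNA, a log2 fold change of -2.71 (SE 0.07; adjusted p = 9.2e-39, edgeR). All 8 plasma cell markers examined were detected, with a summed level of 14579 and 14695 CPM with ILF2 shRNA and 12329.5 and 12635 CPM with non-silencing shRNA. Of these 4 were called higher (JCHAIN, MZB1, CD38 and TNFRSF17) and SDC1 lower by edgeR, and JCHAIN alone gave 7682 and 7594 CPM with ILF2 shRNA and 5594 and 5937 CPM with non-silencing shRNA. Of 14 markers of T cells, monocytes, stroma and epithelium, CD3E alone averaged at least 1 CPM, at 16.5 ± 0.683 CPM with ILF2 shRNA and 7.86 ± 0.514 CPM with non-silencing shRNA (SD, n = 2). CD3E was called higher (log2 fold change 1.07; adjusted p = 8.2e-14, edgeR). The monocyte marker CSF1R was called lower (-0.88; adjusted p = 0.048, edgeR), and KRT8 was not called. edgeR's quasi-likelihood test called 3885 of 19142 tested genes at an adjusted p under 0.05, or 20.3%, with 10.2% higher and 10.1% lower in ILF2 shRNA cells.

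Mitochondrial genes took a larger share of the fragments with ILF2 shRNA, and the ratio between groups was larger for rRNAs than for mRNAs. They made up 0.516% and 0.463% of counted fragments in the ILF2 shRNA libraries, against 0.351% and 0.307% in the non-silencing libraries. The summed rRNAs stood at 1727 and 1754 CPM with ILF2 shRNA, against 850.2 and 579 CPM with non-silencing shRNA, a ratio of 2.43 between group means. The summed mRNAs stood at 3397 and 3012 CPM with ILF2 shRNA, against 2601 and 2453 CPM with non-silencing shRNA, a ratio of 1.27. The ILF2 shRNA libraries therefore lay above both non-silencing libraries for rRNAs and for mRNAs. The summed tRNAs overlapped between groups, at 9.52 and 10.4 CPM with ILF2 shRNA and 8.52 and 9.84 CPM with non-silencing shRNA. So did tRNA per mRNA, at 0.280% and 0.345% with ILF2 shRNA and 0.328% and 0.401% with non-silencing shRNA. The tRNA genes are shorter than the reads, so these counts may not follow the levels of finished tRNAs. RNA of whole cultures cannot tell more mitochondrial RNA in each cell from more cells that are rich in it.

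**Figure D1:**
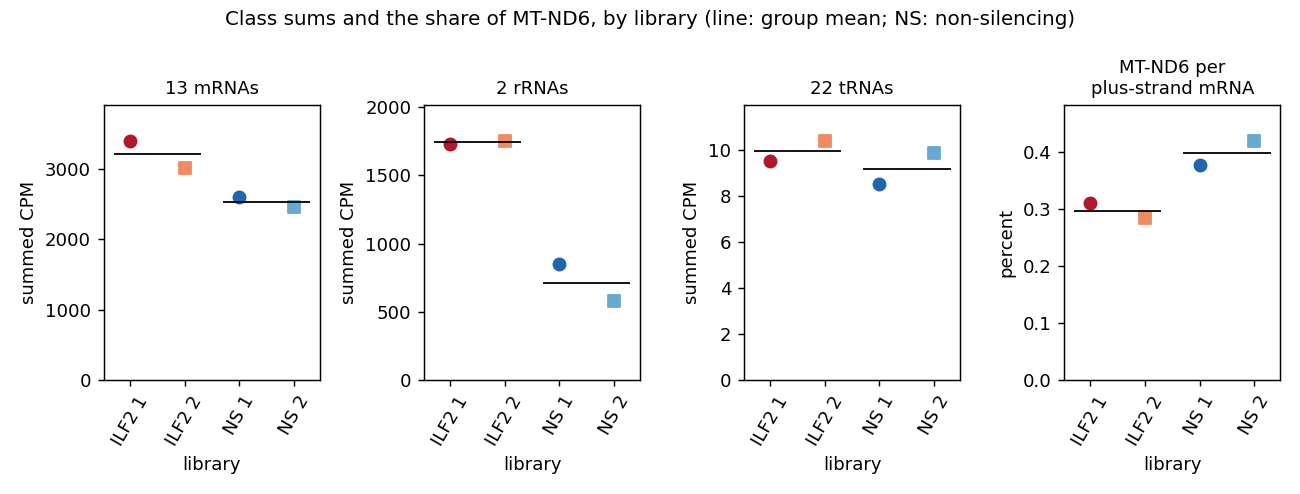
Summed CPM of mitochondrial mRNAs, rRNAs and tRNAs, and MT-ND6 as a percentage of the summed plus-strand mRNAs, for each of the 4 libraries; lines are group means of 2 libraries and every axis starts at 0. The rRNA sum is 1727 and 1754 CPM with ILF2 shRNA, against 850.2 and 579 CPM with non-silencing shRNA, while the tRNA sums overlap.

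Of the 37 genes, 29 passed the filter on low counts: all 13 mRNAs, both rRNAs and 14 tRNAs. By edgeR 7 of the 13 mRNAs were higher with ILF2 shRNA and 0 were lower, beside 10.2% of all tested genes higher. Neither rRNA and 0 of the 14 tested tRNAs passed. At an unadjusted p under 0.05, 8 mRNAs, 1 rRNA and 1 tRNA were higher and 0 genes of any class were lower. DESeq2 called 4 mRNAs and both rRNAs higher. The median log2 fold change was 0.28 over the mRNAs and -0.0015 over all tested genes. The groups did not overlap in 8 of 13 mRNAs, both rRNAs and 2 of 14 tested tRNAs, always with ILF2 shRNA above. Among all tested genes 56.5% did not overlap, 28.5% with ILF2 shRNA above.

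The rRNAs had the largest differences among the mRNAs and rRNAs. MT-RNR1 (ENSG00000211459, GRCh37 chromosome MT, 648 to 1601) encodes the RNA of the small ribosomal subunit. Its counts were 19760 and 25306 fragments with ILF2 shRNA, against 12173 and 6626 with non-silencing shRNA. This corresponds to 310.0 and 366 CPM with ILF2 shRNA, against 164 and 91.9 CPM with non-silencing shRNA. Both ILF2 shRNA libraries were higher, and the non-silencing libraries also lay far apart. The log2 fold change was 1.40 (SE 0.41), and it did not pass (adjusted p = 0.18, edgeR).

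MT-RNR2 (ENSG00000210082, chromosome MT, 1671 to 3229) encodes the RNA of the large subunit. Its counts were 90308 and 96086 fragments with ILF2 shRNA, against 50815 and 35119 with non-silencing shRNA. Its level was 1417 and 1388 CPM with ILF2 shRNA, against 686 and 487 CPM with non-silencing shRNA. The groups did not overlap, and the ILF2 shRNA libraries agreed more closely with each other than the non-silencing libraries did. The log2 fold change was 1.26 (SE 0.21; adjusted p = 0.051, edgeR). DESeq2 put both rRNAs past the threshold, with adjusted p = 0.0086 for MT-RNR1 and 6.6e-06 for MT-RNR2.

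Without non-silencing replicate 1 the log2 fold change was 1.88 for MT-RNR1 and 1.52 for MT-RNR2, and without non-silencing replicate 2 it was 1.04 and 1.03. Both rRNAs then passed in edgeR, but such a fit leaves a lone non-silencing library that is assumed to vary as little as the ILF2 shRNA pair, with an SE of 0.11 to 0.12. Without ILF2 shRNA replicate 1 or replicate 2, where the spread comes from the non-silencing pair, neither passed (adjusted p = 0.42 to 0.58, edgeR). Depletion of ribosomal RNA by the kit used here is aimed at mitochondrial as well as cytoplasmic rRNA, so these counts are what depletion left behind. The 46 nuclear genes annotated as rRNA held 0 and 2 fragments in the ILF2 shRNA libraries and 4 and 2 in the non-silencing libraries, too few to measure depletion, and its part in the rRNA difference was not tested. The level of MT-RNR1 per level of MT-RNR2 overlapped between groups, at 21.9% and 26.3% with ILF2 shRNA and 24.0% and 18.9% with non-silencing shRNA.

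Complex IV mRNAs made up most of the mitochondrial mRNA. MT-CO1, MT-CO2 and MT-CO3 encode the catalytic core of cytochrome c oxidase, the enzyme that hands electrons to oxygen. Together they took 88.4% and 89.8% of mitochondrial mRNA fragments with ILF2 shRNA and 88.3% and 88.8% with non-silencing shRNA. All 3 rose, by 1.23 to 1.44 times.

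MT-CO2 (ENSG00000198712, chromosome MT, 7586 to 8269) had the largest called rise of the mRNAs. Its level was 619 and 564 CPM with ILF2 shRNA, against 431 and 388 CPM with non-silencing shRNA. The gap between the groups exceeded the gap between replicates of either group. The log2 fold change was 0.53 (SE 0.07; adjusted p = 1.2e-08, edgeR), and it passed in each alternative setting, from 0.46 without non-silencing replicate 2 to 0.61 without non-silencing replicate 1.

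MT-CO1 (ENSG00000198804, chromosome MT, 5904 to 7445) was at 1359 and 1233 CPM with ILF2 shRNA, against 1083 and 1002 CPM with non-silencing shRNA. The groups were apart, and the log2 fold change was 0.31 (SE 0.07; adjusted p = 0.00030, edgeR). MT-CO3 (ENSG00000198938, chromosome MT, 9207 to 9990) was at 1025 and 907 CPM with ILF2 shRNA, against 783 and 787 CPM with non-silencing shRNA. Its log2 fold change was 0.30 (SE 0.07; adjusted p = 0.00056, edgeR). The call of MT-CO1 ended without non-silencing replicate 2 (adjusted p = 0.13, edgeR), and that of MT-CO3 without non-silencing replicate 1 (adjusted p = 0.064) or replicate 2 (adjusted p = 0.054).

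**Figure D2:**
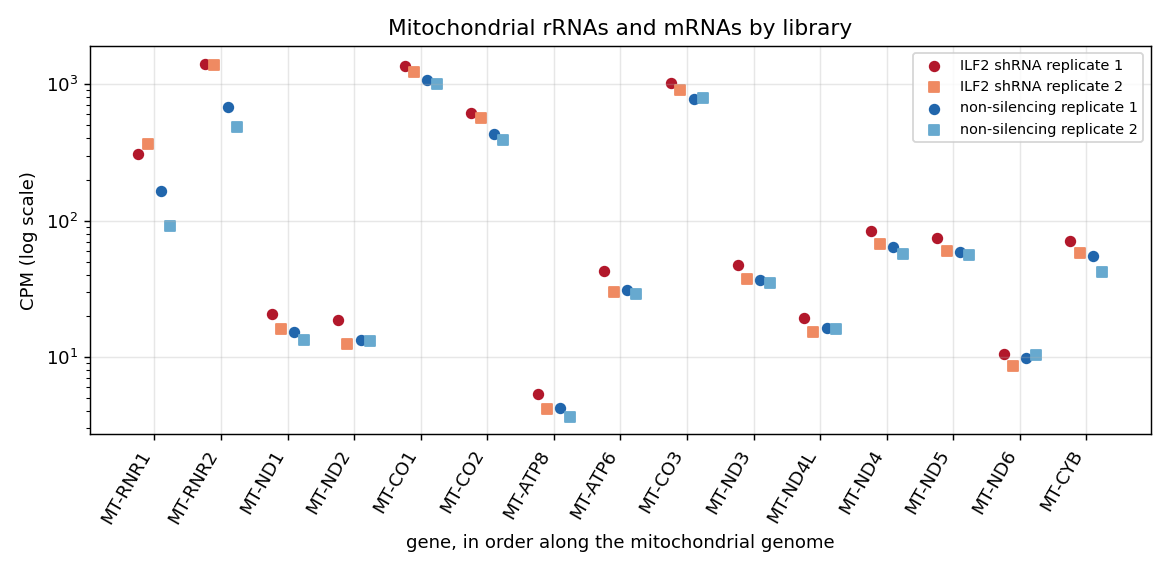
CPM on a log axis of the 2 mitochondrial rRNAs and 13 mRNAs in each library, in order along the genome. Replicate 1 of the ILF2 shRNA libraries is above replicate 2 in all 13 mRNAs, and MT-CO2 stands at 619 and 564 CPM with ILF2 shRNA, against 431 and 388 CPM with non-silencing shRNA.

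Complex I, which takes electrons from NADH and pumps protons, has 7 subunits encoded here. The 4 that rose were MT-ND1, MT-ND3, MT-ND4 and MT-ND5. MT-ND1 was at 20.7 and 15.9 CPM with ILF2 shRNA, against 15.1 and 13.3 CPM with non-silencing shRNA, a log2 fold change of 0.37 (SE 0.10; adjusted p = 0.0053, edgeR). MT-ND4 was at 84.2 and 67.4 CPM with ILF2 shRNA, against 64.1 and 57.2 CPM with non-silencing shRNA, with a log2 fold change of 0.32 (adjusted p = 0.0043, edgeR). In both genes ILF2 shRNA replicate 2 lay only a little above non-silencing replicate 1.

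MT-ND3 was at 47.2 and 37.4 CPM with ILF2 shRNA, against 36.3 and 35.1 CPM with non-silencing shRNA, and its log2 fold change was 0.24 (adjusted p = 0.029, edgeR). MT-ND5 was at 74.2 and 59.8 CPM with ILF2 shRNA, against 58.4 and 55.9 CPM with non-silencing shRNA, a log2 fold change of 0.23 (adjusted p = 0.028, edgeR). All 4 calls ended without ILF2 shRNA replicate 1, where the log2 fold changes were 0.070 to 0.17, and without non-silencing replicate 2, where they were 0.20 to 0.28. Those of MT-ND3 and MT-ND5 also ended without non-silencing replicate 1. DESeq2 kept the call of MT-ND1 and lost the other 3.

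MT-ND2 overlapped between groups, at 18.6 and 12.4 CPM with ILF2 shRNA and 13.4 and 13.1 CPM with non-silencing shRNA (log2 fold change 0.22, SE 0.20; adjusted p = 0.54, edgeR). MT-ND4L did too, at 19.4 and 15.2 CPM with ILF2 shRNA and 16.2 and 15.9 CPM with non-silencing shRNA (log2 fold change 0.11, SE 0.09; adjusted p = 0.47, edgeR). For each, the ILF2 shRNA libraries stood on either side of the non-silencing pair. Without ILF2 shRNA replicate 1 the log2 fold change turned to -0.10 for MT-ND2 and -0.074 for MT-ND4L.

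Complex III has MT-CYB, the gene for cytochrome b, as its only member here. It was at 71.2 and 58.0 CPM with ILF2 shRNA, against 55.4 and 42.2 CPM with non-silencing shRNA. The groups did not overlap, but the replicates of each lay far apart, and the log2 fold change of 0.40 (SE 0.17) did not pass (adjusted p = 0.20, edgeR). With each library left out in turn it was 0.22 to 0.61. Such fits take a gene's own spread from the remaining pair alone, beside the spread shared across genes. With all libraries kept, MT-CYB passed in edgeR with a replicate block (adjusted p = 0.0014) or with no filter (adjusted p = 5.0e-06). It did not pass in DESeq2 (adjusted p = 0.27) or limma-voom (adjusted p = 0.19).

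Complex V, the ATP synthase, has the membrane subunit genes MT-ATP6 and MT-ATP8. MT-ATP6 was at 42.3 and 29.9 CPM with ILF2 shRNA and 30.8 and 28.7 CPM with non-silencing shRNA (log2 fold change 0.28, SE 0.16; adjusted p = 0.33, edgeR). MT-ATP8 was at 5.35 and 4.16 CPM with ILF2 shRNA and 4.21 and 3.64 CPM with non-silencing shRNA (log2 fold change 0.27, SE 0.13; adjusted p = 0.13, edgeR). In both the groups overlapped, with ILF2 shRNA replicate 1 above the other libraries.

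The mRNAs mostly shifted together between the replicates of each group, whereas the other classes did not share this shift. The summed tRNAs were higher in replicate 2 of both groups. The summed rRNAs were slightly higher in replicate 2 with ILF2 shRNA and higher in replicate 1 with non-silencing shRNA. Among the mRNAs the order was as follows. Replicate 1 was above replicate 2 in 13 of 13 mRNAs with ILF2 shRNA and in 11 of 13 with non-silencing shRNA. ILF2 shRNA replicate 1 lay above both non-silencing libraries in 13 mRNAs, and ILF2 shRNA replicate 2 did so in 8. Without ILF2 shRNA replicate 2, 12 of the 13 mRNAs were called higher, and without ILF2 shRNA replicate 1, 4 were. Without non-silencing replicate 2 only MT-CO2 was called. The direction for MT-ND2 and MT-ND4L, and for MT-ND6 described next, changed with the library left out.

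MT-ND6 (ENSG00000198695, chromosome MT, 14149 to 14673, minus strand) encodes a membrane subunit of complex I and is the light-strand mRNA. Its counts were 669 and 590 fragments with ILF2 shRNA, against 724 and 738 with non-silencing shRNA. Its level was 10.5 and 8.52 CPM with ILF2 shRNA and 9.77 and 10.2 CPM with non-silencing shRNA, so the groups overlapped. The log2 fold change was -0.08 (SE 0.10; adjusted p = 0.67, edgeR), and it was 0.069 without ILF2 shRNA replicate 2. It was the only mRNA with a negative value, and 8 minus-strand genes were tested in all, of which 0 passed in either direction.

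To ask whether a gene moved differently from the mitochondrial mRNAs as a whole, the same edgeR model was run with each library scaled to its summed mitochondrial mRNA counts. In that scaling 40% of all genes were called, 1.36% higher and 38.6% lower, since nuclear genes then carry the opposite of the mitochondrial shift. MT-ND6 fell relative to the mRNA total, with a log2 fold change of -0.42 (SE 0.15; adjusted p = 0.015, edgeR). It was the only one of 13 mRNAs called, and the others had values of -0.24 to 0.19. MT-CO1 to MT-CO3 made up 88.3% to 89.8% of that total, so the scaling mainly sets each gene against these 3 mRNAs. As a share of the summed plus-strand mRNAs, MT-ND6 was at 0.310% and 0.284% with ILF2 shRNA, against 0.377% and 0.419% with non-silencing shRNA. Both ILF2 shRNA libraries were lower. MT-ND6 was not alone in this, as shares of the mRNA total were apart for some uncalled mRNAs too. MT-CO2 held 18.2% and 18.7% with ILF2 shRNA, against 16.6% and 15.8% with non-silencing shRNA. MT-ND4L held 0.571% and 0.506% with ILF2 shRNA, against 0.622% and 0.650% with non-silencing shRNA. MT-ND3 and MT-ND5 were also lower in both ILF2 shRNA libraries, and the remaining mRNAs overlapped. Without ILF2 shRNA replicate 1, 3 mRNAs were called lower in this scaling. The call of MT-ND6 ended without non-silencing replicate 1 (-0.50, adjusted p = 0.091) and without non-silencing replicate 2 (-0.34, adjusted p = 0.31).

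Both rRNAs were called higher relative to the mRNA total in this fit. The relative log2 fold change was 1.08 for MT-RNR1 (SE 0.15; adjusted p = 3.5e-11, edgeR) and 0.93 for MT-RNR2 (SE 0.15; adjusted p = 8.6e-08, edgeR). The summed rRNAs per summed mRNAs came to 50.8% and 58.2% with ILF2 shRNA, against 32.7% and 23.6% with non-silencing shRNA. On the log2 scale the replicates of this ratio had an SD of up to 0.33. The SEs of 0.15 were smaller than that SD and draw on spread shared across genes. These p-values therefore do not measure the rRNAs' own spread between replicates. In the fit scaled to all genes the SE of MT-RNR1 was 0.41, and neither rRNA passed (adjusted p = 0.18 for MT-RNR1 and 0.051 for MT-RNR2, edgeR). Without non-silencing replicate 2 the value for MT-RNR2 was 0.74 and no longer passed (adjusted p = 0.078, edgeR). None of the 14 tested tRNAs was called relative to the mRNA total, at an adjusted or an unadjusted p under 0.05 in edgeR. Without ILF2 shRNA replicate 2, 2 tRNAs were called lower.

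**Figure D3:**
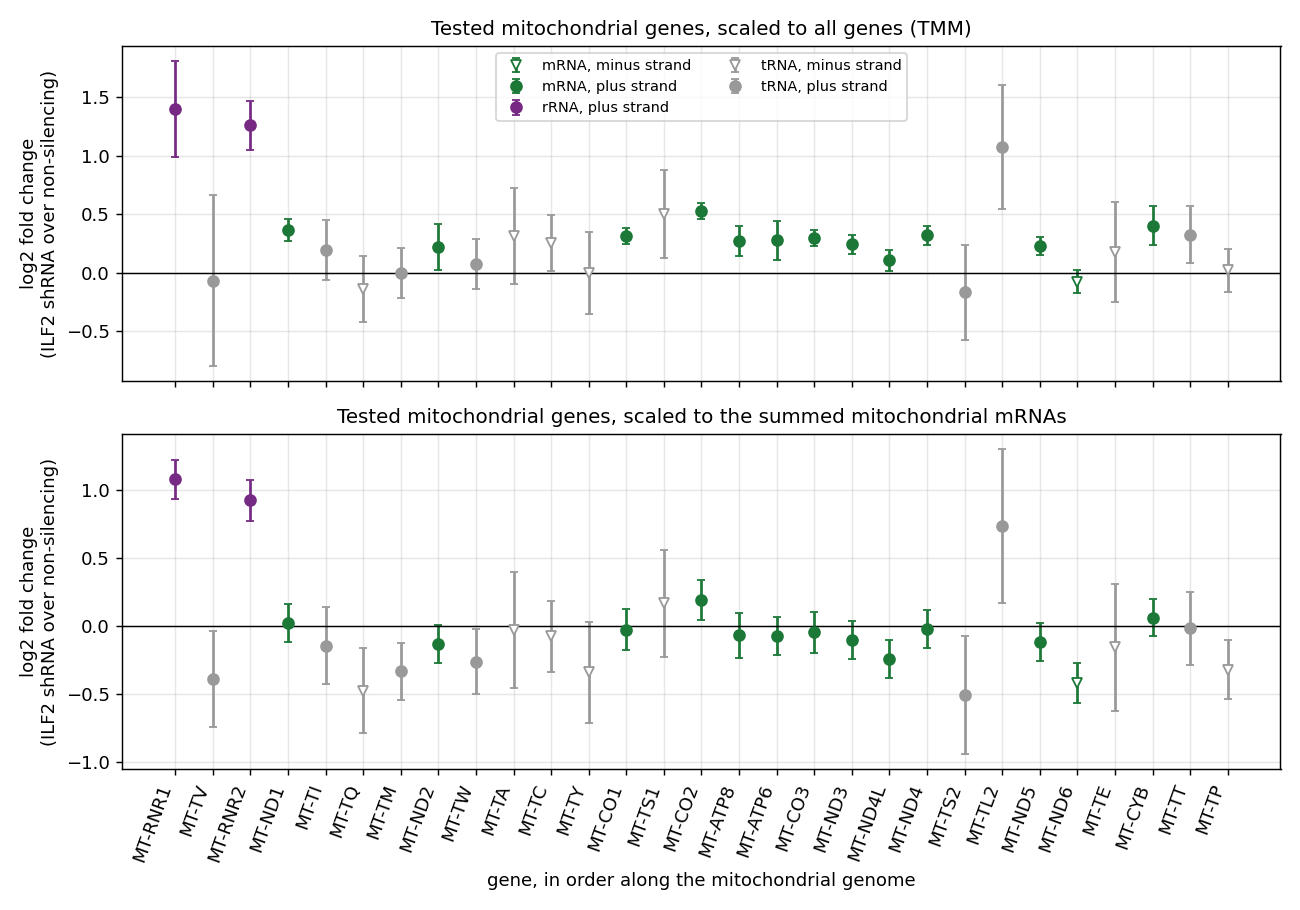
Log2 fold change (ILF2 shRNA over non-silencing shRNA, bars ± SE) of the 29 tested mitochondrial genes in genome order, scaled to all genes above and to the summed mitochondrial mRNAs below; filled circles are plus-strand and open triangles minus-strand genes. MT-RNR1 and MT-RNR2 stand at 1.40 and 1.26 in the upper panel, and MT-ND6 at -0.42 in the lower.

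Summed over strands, plus-strand genes stood at 5118 and 4763 CPM with ILF2 shRNA, against 3446 and 3028 CPM with non-silencing shRNA. Minus-strand genes overlapped, at 14.9 and 12.8 CPM with ILF2 shRNA and 13.8 and 14.3 CPM with non-silencing shRNA. The minus-to-plus ratio was 0.292% and 0.269% with ILF2 shRNA, against 0.400% and 0.472% with non-silencing shRNA. This ratio includes the rRNAs, which made up 33.6% and 36.7% of mitochondrial fragments with ILF2 shRNA and 24.6% and 19.0% with non-silencing shRNA. Among the 12 plus-strand mRNAs the log2 fold changes showed little order along the genome (Spearman rho -0.10 across genes, which share a transcript and the same libraries).

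Levels per length differed far more between mitochondrial mRNAs than between the groups. MT-CO3 was highest of the mRNAs, at 1232 CPM per kb with ILF2 shRNA and 1002 CPM per kb with non-silencing shRNA. MT-ND2 was lowest, at 14.9 CPM per kb with ILF2 shRNA and 12.7 CPM per kb with non-silencing shRNA, although both genes lie on the plus strand. The lowest group mean of MT-CO1 to MT-CO3 was 599 CPM per kb, and the highest of the other 10 mRNAs was 122 CPM per kb (MT-ND3). The order of the 13 mRNAs was close to the same in every library, with a Spearman rho of at least 0.96 between any pair of libraries.

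**Figure D4:**
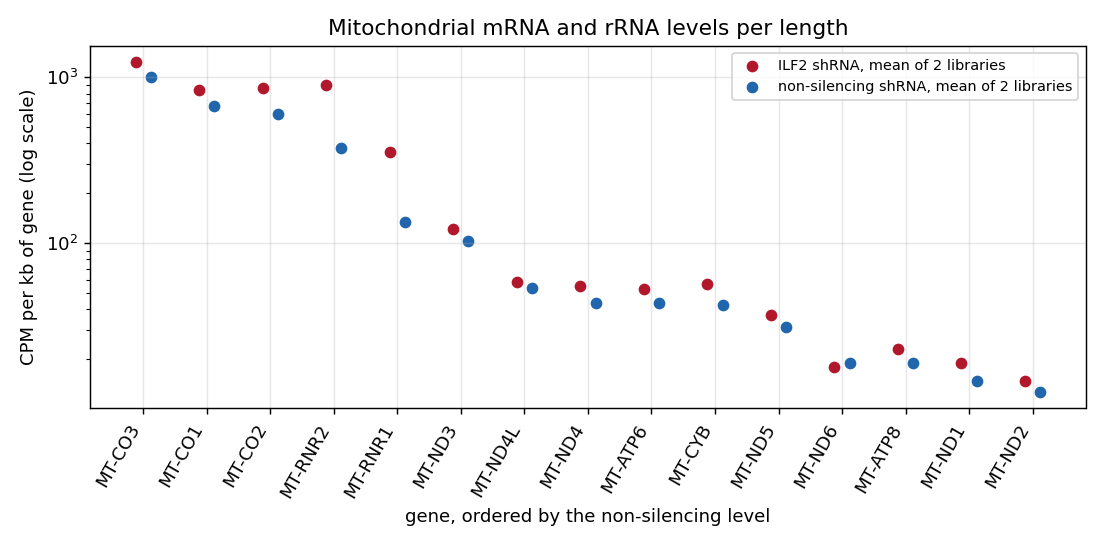
CPM per kb of gene on a log axis for the mitochondrial mRNAs and rRNAs, as means of 2 libraries per group. MT-CO1 to MT-CO3 stand at 599 CPM per kb or more in both groups, and the other 10 mRNAs at 122 CPM per kb or less.

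Nuclear copies of mitochondrial genes can take part in such levels, because fragments that match both places equally well are taken to be left out of the counts. Of 394 nuclear genes named as such copies, 62 had a fragment in any library, and together they held 895 and 884 fragments with ILF2 shRNA and 901 and 769 with non-silencing shRNA. These sums correspond to 0.274% and 0.267% of the mitochondrial fragments with ILF2 shRNA and 0.352% and 0.351% with non-silencing shRNA. The most counted was MTATP6P1 on chromosome 1, with 301 and 283 fragments with ILF2 shRNA and 296 and 260 with non-silencing shRNA, against 2067 to 2695 for MT-ATP6 itself. Their part in the level of each gene was not tested.

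Mitochondrial tRNAs carry amino acids to the mitochondrial ribosome and were counted with few fragments. Reads were 76 bases long and the tRNA genes 59 to 75 bases, so a full-length read reaches past any of them. These counts therefore may not follow the levels of finished tRNAs. Together they held 607 and 719 fragments with ILF2 shRNA and 631 and 709 with non-silencing shRNA. Under the settings in the file headers, a fragment that reaches from a tRNA into a neighbour on the same strand is assigned to neither gene, whereas a reach into a gene of the opposite strand leaves it with the tRNA. Fragments from uncut precursors are therefore counted unevenly between tRNAs. Of the tRNAs, 8 did not pass the filter and had at most 10 fragments in a library. The 14 tested tRNAs had 5 to 139 fragments in a library, or 0.0675 to 2.01 CPM.

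The most counted tRNAs were MT-TM, for methionine, and MT-TP, for proline, and the least counted was MT-TN, for asparagine. Their genes are shown for comparison, whole and in lower case: MT-TM (chrM:4402-4469, plus strand), MT-TP (chrM:15956-16023, minus strand) and MT-TN (chrM:5657-5729, minus strand).
MT-TM: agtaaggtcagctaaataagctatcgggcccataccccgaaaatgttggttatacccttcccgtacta
MT-TP: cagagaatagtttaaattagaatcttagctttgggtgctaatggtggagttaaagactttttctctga
MT-TN: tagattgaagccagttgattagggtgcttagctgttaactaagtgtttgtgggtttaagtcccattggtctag

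MT-TM was at 1.08 and 2.01 CPM with ILF2 shRNA and 1.35 and 1.78 CPM with non-silencing shRNA, so both non-silencing libraries lay between the ILF2 shRNA libraries. MT-TP was at 1.60 and 1.43 CPM with ILF2 shRNA and 1.46 and 1.53 CPM with non-silencing shRNA, again with overlap. MT-TN had 0 and 0 fragments with ILF2 shRNA and 0 and 1 with non-silencing shRNA; a count of 0 allows up to 3 fragments, or 0.0473 and 0.0420 CPM before TMM adjustment in the ILF2 shRNA libraries. These limits cover counting error only.

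The other tRNAs named by abundance were MT-TW (tryptophan), MT-TT (threonine), MT-TC (cysteine) and MT-TI (isoleucine). MT-TT had the largest difference of these, at 1.04 and 0.722 CPM with ILF2 shRNA and 0.715 and 0.680 CPM with non-silencing shRNA (log2 fold change 0.33, SE 0.24; adjusted p = 0.39, edgeR). The groups were apart, by little next to the gap within the ILF2 shRNA pair. MT-TC (0.26, SE 0.24), MT-TI (0.20, SE 0.25) and MT-TW (0.07, SE 0.21) overlapped between groups. The SEs of the 6 tRNAs named here were 0.18 to 0.25. The 14 plus-strand tRNAs summed to 5.10 and 6.11 CPM with ILF2 shRNA and 4.52 and 5.79 CPM with non-silencing shRNA. The 8 minus-strand tRNAs summed to 4.42 and 4.28 CPM with ILF2 shRNA and 3.995 and 4.05 CPM with non-silencing shRNA, where the groups were apart, with a ratio of 1.08 between group means.

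Nuclear genes that copy, process and maintain the mitochondrial genome were called in 13.6% to 22.2% of each list, beside 20.3% of all tested genes. Of 10 genes for mitochondrial transcription, 1 rose and 1 fell, or 20%. TFAM, which packages mitochondrial DNA and starts its transcription, was at 41.2 and 36.7 CPM with ILF2 shRNA, against 46.8 and 49.3 CPM with non-silencing shRNA. Both ILF2 shRNA libraries were lower, with a log2 fold change of -0.30 (SE 0.08; adjusted p = 0.0020, edgeR). The call ended once ILF2 shRNA replicate 2 was left out (adjusted p = 0.054, edgeR), or non-silencing replicate 2 was (adjusted p = 0.096).

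The gene that rose was MTERF1, whose product binds within MT-TL1 and can end transcription there, at the tRNA gene shown above between the rRNAs and MT-ND1. It was nearly absent: 18 and 14 fragments with ILF2 shRNA, against 1 and 1 with non-silencing shRNA (adjusted p = 8.5e-05, edgeR). The ratio, per TMM-adjusted library size, was 17.6, with an exact binomial 95% interval of 4.49 to 151 from counting error only. DESeq2 gave it no adjusted p, and it did not reach a filter of 1 CPM in 2 libraries.

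Of 22 genes for mitochondrial RNA processing and stability, 2 rose and 1 fell, or 13.6%, with a median log2 fold change of -0.01. GRSF1, which binds mitochondrial RNA in granules, fell to 293 and 274 CPM with ILF2 shRNA, against 320.5 and 342 CPM with non-silencing shRNA (log2 fold change -0.22, SE 0.07; adjusted p = 0.010, edgeR). PTCD2 and FASTKD3, which act on mitochondrial mRNAs, rose by 0.30 and 0.24 on the log2 scale (adjusted p = 0.021 and 0.026, edgeR). Without ILF2 shRNA replicate 1, 0 of the 22 rose, and 0 fell without ILF2 shRNA replicate 2. Without either non-silencing library in turn 0 fell, and without non-silencing replicate 1, 0 rose.

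Of 16 genes for tRNA maturation, 1 rose and 2 fell, or 18.8% beside the same 20.3%. Both ILF2 shRNA libraries lay below both non-silencing libraries in 9 of the 16 and above in 2, beside 28% and 28.5% of all tested genes. THG1L, a tRNA guanylyltransferase gene, rose by 0.30 on the log2 scale (adjusted p = 0.0052, edgeR), and the tRNA modification genes GTPBP3 and QTRT2 had log2 fold changes of -0.24 and -0.21 (adjusted p = 0.019 and 0.028, edgeR). Of 18 genes for replication and upkeep of mitochondrial DNA, 1 rose and 3 fell, or 22.2%, also near the 20.3% of all tested genes. LIG3, the ligase of mitochondrial DNA, fell to 73.8 and 77.8 CPM with ILF2 shRNA, against 91.6 and 91.8 CPM with non-silencing shRNA (log2 fold change -0.27, SE 0.07; adjusted p = 0.0024, edgeR). The call of LIG3 ended without non-silencing replicate 1 (adjusted p = 0.067) or replicate 2 (adjusted p = 0.072, edgeR). The nuclease and helicase gene DNA2 fell by 0.26 on the log2 scale and the pyrimidine nucleotide carrier gene SLC25A33 by 0.25, while the ADP and ATP carrier gene SLC25A4 rose by 0.24. These small counts were unstable. Of the maturation genes 0 fell without non-silencing replicate 1, and 1 fell without any other single library, while 0 rose without either non-silencing library in turn. Of the maintenance genes 0 fell without non-silencing replicate 2, and 1 fell when either non-silencing replicate 1 or replicate 2 of the ILF2 shRNA libraries was left out. The rise of SLC25A4 ended without each of those 3 libraries.

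Of 72 nuclear-encoded subunits of the same respiratory complexes, 7 rose and 0 fell, or 9.72% called. Among all tested genes 10.2% were called higher and 10.1% lower. Both ILF2 shRNA libraries lay above both non-silencing libraries in 31 of the 72 and below in 8, beside 28.5% and 28% of all tested genes. Their median log2 fold change was 0.06, against 0.28 for the 13 mitochondrial mRNAs. COX7C, a small subunit gene of complex IV, was higher in both ILF2 shRNA libraries and rose by 0.28 on the log2 scale (SE 0.07; adjusted p = 0.0014, edgeR). NDUFS4 of complex I and UQCRQ of complex III rose by 0.29 and 0.22. Without non-silencing replicate 1 or replicate 2, 1 of the 72 rose.

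Many of the nuclear risers share a chromosome. PTCD2, FASTKD3, THG1L, COX7C, NDUFS4 and UQCRQ lie on chromosome 5. There the median over 900 tested genes was 0.15 on the log2 scale, against -0.0077 elsewhere. Among genes on other chromosomes, 0 processing genes, 0 maturation genes and 4 nuclear respiratory subunit genes rose, a count that follows from where the called genes lie. The part of chromosome 5 in these calls was not tested.

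**Figure D5:**
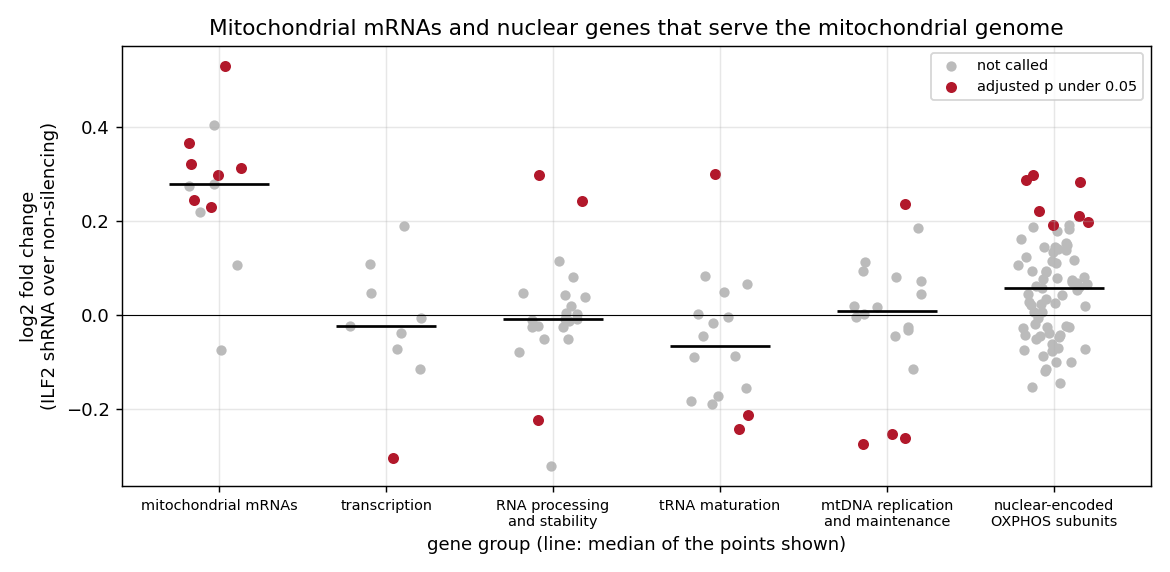
Log2 fold change (ILF2 shRNA over non-silencing shRNA) of the 13 mitochondrial mRNAs and of 5 groups of nuclear genes, each point a gene, red where the edgeR adjusted p was under 0.05; MTERF1 is left off the axis and out of its group's median line. The mitochondrial mRNAs have a median of 0.28 and the nuclear-encoded respiratory subunits one of 0.06.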

How the data were processed

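Per the file headers, the authors deposited integer counts: fragments assigned to each gene by featureCounts (Subread 1.4.6-p2) under the Ensembl release 75 annotation of GRCh37, with strand setting 2 in paired mode. The recorded command sets no option for fragments that map to several places or touch several genes, and by default the program drops them. STAR 2.3.0 and SAMtools 0.1.19 are listed per the submitters' processing notes, whereas their design text names Tophat2.

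Groups and replicate numbers came from sample titles. Mitochondrial genes were those with MT in the chromosome column, and all 37 matched a symbol by Ensembl ID. Counts were tested in edgeR 4.0.16 (R 4.3.3) with TMM, filterByExpr (minimum count 10), robust quasi-likelihood fits on group alone, two-sided, with Benjamini-Hochberg adjustment over 19142 genes. SE was taken from the F statistic. A second fit used the summed mitochondrial mRNA counts as library sizes. CPM uses TMM-adjusted library sizes, and sums of classes or strands were not tested. With 2 libraries per group the fits have 2 residual degrees of freedom, and the biological coefficient of variation was 5.38%.

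Members and gene lists were chosen with earlier results of these data known. The rule for named genes took ILF2, all mitochondrial mRNAs and rRNAs, the 6 tRNAs of highest mean CPM, any called tRNA, and up to 4 called members of each list by adjusted p. A result that this rule would name in the respiratory subunit list is not reported here. Alternatives were DESeq2 1.42.0, limma-voom (limma 3.58.1), other scalings and filters, a replicate block and each library left out. The edgeR procedure was tested on simulated counts with the same spread for every gene. That test does not cover genes whose replicates lie far apart.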

Additional observations from a re-analysis of the deposited data

How the results depend on the processing

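Across tested genes the differences between replicates 1 and 2 in the 2 groups had a correlation of -0.14. This value cannot show how the samples were prepared, so whether replicate numbers pair them stays unknown. With the replicate block 1291 genes were called higher; both rRNAs passed; 0 processing genes rose and 0 fell; 0 tRNA maturation genes fell; 0 maintenance genes rose and 1 fell; and 2 nuclear respiratory subunit genes rose. A crossed pairing, added after seeing the data, gave 3 mRNAs and 3 plus-strand genes higher, 0 mRNAs lower relative to the mRNA total, 2 transcription genes higher, 4 maturation genes lower, 2 maintenance genes higher, and 22 nuclear respiratory subunit genes higher and 3 lower.

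DESeq2 called 4 mRNAs, 2 rRNAs and 1 processing gene higher and 0 transcription genes (MTERF1 had no adjusted p). The stricter filter also left 0 transcription genes higher. DESeq2 size factors, upper-quartile factors and no filter each called 1 rRNA higher, and no filter called 4 nuclear respiratory subunit genes higher. Library size alone called 3 mRNAs, 1 rRNA and 4 plus-strand genes higher, 0 processing and 0 maintenance genes higher, and 3 nuclear respiratory subunit genes higher; the log2 ratio of the minus-strand tRNA sum was then 0.077 and the log2 fold change of MT-TP -0.016. It moved the median of all genes by less than 0.1. Without chromosome 5, added after seeing the data, the rises were 0, 0 and 4 for processing, maturation and respiratory genes. The cause of these changes was not tested, except that chromosome 5, the filter and the missing adjusted p removed genes by construction.

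With each library left out in turn, 1029 to 1899 genes were higher and 1070 to 1822 lower. Mitochondrial calls ran from 1 to 12 mRNAs, 0 to 2 rRNAs and 3 to 12 plus-strand genes higher, with 0 to 1 plus-strand gene and 0 to 1 tRNA lower. Relative to the mRNA total 0 to 3 mRNAs and 0 to 2 tRNAs were lower and 1 to 2 rRNAs higher. Higher and lower calls were 0 to 2 and 0 to 1 for processing, 0 to 1 and 0 to 1 for maturation, and 0 to 1 and 0 to 2 for maintenance genes, with 0 to 1 transcription gene lower and 1 to 9 nuclear respiratory subunit genes higher. Log2 fold changes that changed sign ran from -0.10 to 0.49 for MT-ND2, -0.074 to 0.27 for MT-ND4L, -0.23 to 0.069 for MT-ND6, -0.067 to 0.69 for MT-TC, -0.53 to 0.37 for MT-TM, -0.058 to 0.10 for MT-TP and -0.13 to 0.29 for MT-TW. In each of these fits the lone library of a group is assumed to vary like the remaining pair. The tested tRNAs rest on 5 to 139 fragments in a library.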
